A study of Mus musculus with 6 samples.

Results

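The 10 genes described here handle zinc: the metallothioneins Mt1 and Mt2, their activator Mtf1, the zinc transporters Slc30a1, Slc30a5, Slc30a7 and Slc30a9 of the SLC30 (ZnT) family, and Slc39a1, Slc39a10 and Slc39a14 of the SLC39 (ZIP) family. They were taken by gene symbol from a table of 14005 listed genes, and all 10 were listed and tested. Polyadenylated RNA was sequenced from mouse bone marrow-derived macrophages (BMDM), which are primary macrophages grown from bone marrow, in 6 libraries, 3 for each of 2 groups. Wild-type C57BL/6J cells served as controls. The other group, labelled Txn1 KO, carried the alleles Txn1tm1.1Ees/J and B6.129P2-Lyz2tm1(cre)lfo/J on a C57BL/6J background. In that cross, Cre recombinase is driven by Lyz2, a gene of myeloid cells that the insertion interrupts, and a Cre-only control was not analysed here. Txn1 encodes thioredoxin-1, which reduces protein disulfides in the cytosol, and the stated interest of the study was the expression of inflammasome genes after its loss. Both groups were labelled as pooled male and female material. The labels do not say that the libraries of a group came from separate animals or cultures, so the p-values measure only the spread between these libraries.

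Zinc in the cytosol is kept low by proteins that bind it, pump it out or store it. Metallothioneins are small proteins whose many cysteines bind zinc and copper and can be oxidised, which releases the metal. When free zinc rises, the zinc-finger factor MTF-1 binds metal response elements (MREs) in the promoters of Mt1, Mt2 and Slc30a1 and raises their transcription. ZnT proteins move zinc out of the cytosol, across the plasma membrane or into organelles, and ZIP proteins move it in. In macrophages zinc is also moved during the response to microbes.

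The promoters of the members that carry MRE cores and whose transcripts rose are shown first, because the MRE is the element through which zinc acts on these genes. The MRE core was searched as TGCACNC or TGCGCNC on both strands in the 250 bases before each RefSeq start site on GRCm38.p6, and each match is in capitals below. Sequences are from RefSeq, 5′ to 3′ on the plus strand, on which all 3 genes lie. The Mt1 stretch is chr8:94178839-94179081, the Mt2 stretch is chr8:94172368-94172617 and the Slc30a1 stretch is chr1:191906531-191906766. The Mt1 and Slc30a1 stretches stop at the base before the GENCODE M21 gene start. They thus show 243 and 236 of the 250 bases searched.
Mt1: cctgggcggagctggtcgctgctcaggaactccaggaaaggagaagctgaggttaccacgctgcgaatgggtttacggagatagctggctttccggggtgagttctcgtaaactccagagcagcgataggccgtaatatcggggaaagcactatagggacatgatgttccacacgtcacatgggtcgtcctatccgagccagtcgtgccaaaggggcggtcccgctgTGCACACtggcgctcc
Mt2: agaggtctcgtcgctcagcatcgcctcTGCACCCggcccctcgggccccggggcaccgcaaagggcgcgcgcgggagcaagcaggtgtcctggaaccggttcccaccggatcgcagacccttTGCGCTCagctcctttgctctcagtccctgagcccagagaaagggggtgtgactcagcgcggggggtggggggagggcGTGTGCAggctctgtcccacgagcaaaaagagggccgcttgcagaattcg
Slc30a1: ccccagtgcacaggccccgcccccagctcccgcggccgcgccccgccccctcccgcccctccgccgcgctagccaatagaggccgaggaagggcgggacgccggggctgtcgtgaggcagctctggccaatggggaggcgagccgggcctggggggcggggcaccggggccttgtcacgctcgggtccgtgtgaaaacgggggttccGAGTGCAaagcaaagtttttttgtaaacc
The Mt2 stretch held 3 MRE cores, TGCACCC and TGCGCTC on the plus strand and GTGTGCA, which is a match on the minus strand. They began 223, 128 and 50 bases before the start site. The Mt1 stretch held 1 core, TGCACAC, and the Slc30a1 stretch held 1, GAGTGCA, a match on the minus strand. The Slc30a1 core began 43 bases before the RefSeq start, which lies beyond the end of the printed stretch. Of all 32851 promoter entries in the RefSeq table, 21.4% held at least 1 core and 1.26% held at least 3.

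Mt1 also has start sites further inside the gene. GENCODE M21 gives 3 Mt1 transcripts, which begin at 94179082, 94179211 and 94179241 on chromosome 8. The 250 bases before the innermost start held 5 MRE cores, which began 175, 150, 132, 68 and 54 bases before it, the fourth on the minus strand. The first of these 5 is the core TGCACAC of the stretch printed above. This window was chosen after the RefSeq window had been searched, so its count is not comparable with the shares over RefSeq promoters. The antioxidant response element core, TGACNNNGC, which NRF2 binds, was present once in the Mt2 promoter as TGACTCAGC. The Slc30a1 promoter held it once on the minus strand, as GCCTTGTCA. The RefSeq window of Mt1 did not hold it, while the inner Mt1 window held it once, as TGACTATGC. The promoter of Slc39a1, a member that did not pass the test, also held it once on the minus strand, as GCTCAGTCA. It was present in 10.2% of all promoters. RefSeq held 10 promoter entries for 9 of the 10 members. MRE cores were found in 4 of these entries, the fourth being Slc30a5, whose transcript did not pass the test. A match describes letters in a window and is no measurement of binding. Slc30a7, the other member that rose, had neither core in its window.

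Libraries held 29716640, 38726953 and 35988877 reads in wild type, against 25939608, 31127228 and 22508616 in the libraries labelled Txn1 KO. All 8 macrophage markers searched were listed, under 9 identifiers. Of these identifiers 4 were higher, 3 lower and 2 not called in the libraries labelled Txn1 KO. Over all genes tested 11.5% were higher and 9.97% lower. Mertk (log2 0.64), Itgam (0.48) and Aif1 (0.36) rose, as did a second Itgam identifier (1.68) with 7 to 35 reads per library. Fcgr1 (-0.71), Cd14 (-0.47) and Cd68 (-0.12) fell, and Csf1r and Adgre1 did not pass. The summed level of the macrophage markers was 137166 to 140384 normalized counts in wild type and 134476 to 135438 in the other group. Lyz2 fell from 364408 ± 3550 to 3118 ± 1281 normalized counts (SD, n = 3 each), which follows the labels. Txn1 over the whole gene did not pass the test (log2 -0.03 ± 0.037, SE; limma adjusted p = 0.686), with an interval of 93.0% to 103.6% of wild type. Loss of the Txn1 transcript is thus not shown by these values. Reads outside the deleted part cannot show a deletion, and values per exon were not examined. Wild-type replicate 1 and the library labelled Txn1 KO replicate 3 held liver transcripts, with 642.9 and 580.0 normalized counts of the albumin gene Alb. The other 4 had at most 0.838 of Alb, and in them Fga, Fgb, Fgg and Cyp2e1 were listed at 0. Of 15 hepatocyte markers searched, 10 were listed. Apoa2 and Trf did not set the 2 libraries apart from the other 4, while Ttr, Hpx and Cps1 were higher in both. Results are therefore also given without these 2 libraries. The summed level of 10 stromal markers was 2544 to 2933 in wild type and 1241 to 2194 in the other group. Of these 10, 6 were lower and 0 higher, where 9.97% of all genes were lower. That of 4 Y-linked genes was 2059 to 2198 against 1158 to 1233, ranges that did not overlap. Whether the share of male material differed between the pools was not tested. Such a difference could not be told apart from genotype here. The 5 of 8 listed neutrophil markers summed to 291.4 to 316.1 against 255.7 to 296.8, with 2 of 5 lower, S100a9 and Ngp, and a median log2 change of -0.83. The 3 of 6 listed mast cell and basophil markers summed to 35.0 to 53.0 against 39.0 to 50.7, with 0 of 3 called. The part of these differences in the results was not tested. In bulk RNA, fewer cells of a type and less RNA per cell cannot be told apart.

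Of the 10 genes, 4 rose in the libraries labelled Txn1 KO, 0 fell and 6 did not pass the test. The 4 were Slc30a1, Mt2, Mt1 and Slc30a7, at a limma adjusted p under 0.05 over all 13977 genes tested. Among all genes 21.5% passed in either direction, 11.5% as higher and 9.97% as lower. Levels are normalized counts, which are read counts divided by 1 size factor per library, and log2 changes are differences in log2(normalized count + 1). The median log2 change of the 10 was 0.12, against -0.0049 over all genes, and their median absolute change was 0.14, against 0.13. The typical size of change was thus close to that of all genes. In 5 of the 10 genes the levels of the groups did not overlap, and 36.2% of all genes were like that. Without the 2 libraries with liver transcripts 2 of the 10 passed, Mt1 and Slc30a1, while 15.7% of all genes did.

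**Figure D1:**
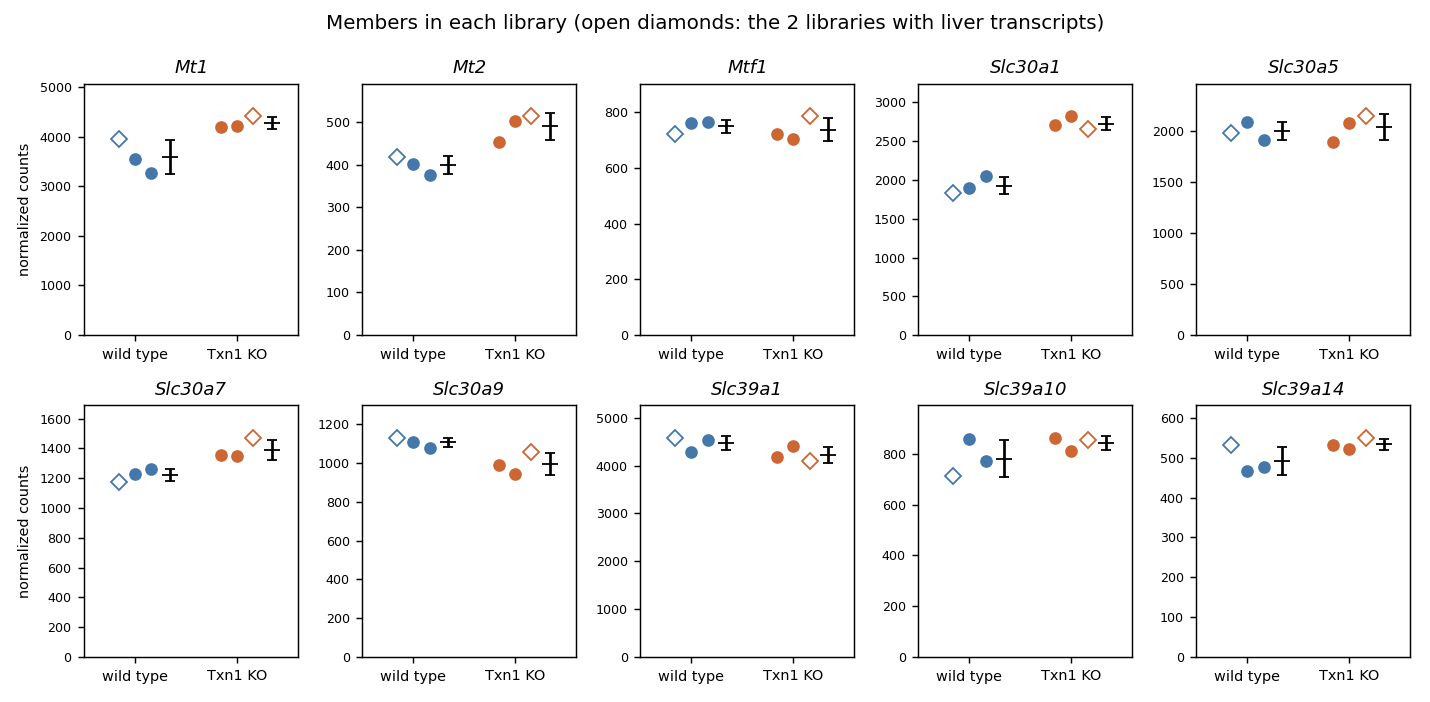
Normalized counts of the 10 genes in each of the 6 libraries, 1 panel per gene, with linear axes from 0; points are libraries, open diamonds are the 2 libraries with liver transcripts, and black marks are group means with SD. The levels of the groups do not overlap for Mt1, Mt2, Slc30a1, Slc30a7 and Slc30a9 and overlap for the other 5.

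Both metallothioneins rose by about the same small fold. Mt1 (ENSMUSG00000031765, GRCm38 chromosome 8, 94179082 to 94180327, plus strand) encodes metallothionein-1. Its level was 3943, 3543 and 3265 normalized counts in wild-type replicates 1 to 3, against 4200, 4220 and 4408 in the libraries labelled Txn1 KO. All 3 of the latter were above all 3 wild-type libraries. The means were 3584 ± 341 and 4276 ± 115 (SD, n = 3 each), a 1.19-fold difference. The log2 change was 0.26 ± 0.053 (SE; 95% interval 0.15 to 0.37; limma adjusted p = 0.00182), and 74.7% of all genes changed by less in either direction. The library with liver transcripts was the highest of its group for Mt1 in both groups. Without these libraries the log2 change was 0.31 ± 0.043 (limma adjusted p = 0.00180). Mt1 passed the test in each of 17 alternative analyses, with log2 changes from 0.19 to 0.33.

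Mt2 (ENSMUSG00000031762, chromosome 8, 94172664 to 94173568, plus strand), which encodes metallothionein-2, is the neighbour of Mt1. Its level was 418.8, 401.0 and 375.6 normalized counts in wild type, against 453.3, 502.3 and 512.8 in the libraries labelled Txn1 KO. The groups did not overlap, and wild-type replicate 3 was the lowest of all 6 libraries for Mt2, as it was for Mt1. Again as for Mt1, the library with liver transcripts was the highest of its group in both groups. The means were 398.5 ± 21.7 and 489.5 ± 31.8 (SD, n = 3 each), which is 1.23-fold. The log2 change was 0.30 ± 0.078 (SE; 95% interval 0.13 to 0.46; limma adjusted p = 0.0115). The call ended without wild-type replicate 3 (log2 0.25, limma adjusted p = 0.0701). It also ended without both liver-carrying libraries (log2 0.30, limma adjusted p = 0.0625). The size of the change was close to the main value in both cases.

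The ratio of Mt1 to Mt2 normalized counts was 9.42, 8.84 and 8.69 in wild type, against 9.27, 8.40 and 8.60 in the libraries labelled Txn1 KO. These ranges overlapped between the groups. Mt1 and Mt2 are close copies, and reads that match both may have been split between them. The antisense transcript Gm45774 covers 73.5% of the exonic bases of Mt2, and whether reads were counted by strand was not given in the sources used here. Gm45774 itself was listed at 27.1 ± 8.25 and 31.3 ± 1.10 normalized counts (SD, n = 3 each; log2 0.25 ± 0.30, SE; limma adjusted p = 0.620), far below Mt2.

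Mtf1 (ENSMUSG00000028890, chromosome 4, 124802104 to 124849800, plus strand), which encodes the zinc-sensing factor MTF-1, did not pass the test. Its level was 720.4, 762.3 and 763.0 normalized counts in wild type, against 722.2, 704.2 and 784.6 in the libraries labelled Txn1 KO. The groups overlapped, and the highest and the lowest library were both labelled Txn1 KO. Mtf1 differed by a log2 of -0.02 ± 0.062 (SE; 95% interval -0.15 to 0.11; limma adjusted p = 0.845), an interval of 89.8% to 108% of wild type. MTF-1 is known to be governed by zinc binding and by movement into the nucleus, which transcript levels do not measure. The opposite-strand gene 1110065P20Rik shares 8.09% of the exonic bases of Mtf1, so its reads may enter the value of Mtf1, which was not tested. 1110065P20Rik itself fell (log2 -0.39, limma adjusted p = 0.0429).

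Of the 4 ZnT genes, Slc30a1 and Slc30a7 rose, and Slc30a5 and Slc30a9 did not pass the test. Slc30a1 (ENSMUSG00000037434, chromosome 1, 191906767 to 191913247, plus strand) encodes ZnT1, the exporter of the plasma membrane. It was at 1834, 1891 and 2048 normalized counts in wild type, against 2707, 2820 and 2657 in the libraries labelled Txn1 KO. The gap between the groups was wider than the spread within either. The means were 1924 ± 110 and 2728 ± 83.6 (SD, n = 3 each), 1.42-fold apart. The log2 change of 0.50 ± 0.047 (SE; 95% interval 0.40 to 0.60; limma adjusted p = 4.97e-07) was the largest of the 10 genes, and 89.3% of all genes changed by less. Leaving out both liver-carrying libraries gave 0.49 (limma adjusted p = 2.70e-04), and Slc30a1 passed in each of the 17 alternatives. The antisense gene 1700034H15Rik covers 8.92% of its exonic bases and was listed at 21.2 ± 6.72 and 20.2 ± 7.82 normalized counts. The ratio of Slc30a1 to Mt1 was 0.465, 0.534 and 0.627 in wild type, against 0.644, 0.668 and 0.603 in the other group, so these ranges overlapped.

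Slc30a7 (ENSMUSG00000054414, chromosome 3, 115938973 to 116007406, minus strand) encodes ZnT7, which loads zinc into the early secretory pathway. Its level was 1177, 1225 and 1259 normalized counts in wild type, against 1354, 1346 and 1468 in the libraries labelled Txn1 KO. The groups did not overlap, and the library labelled Txn1 KO replicate 3 was the highest. The means were 1220 ± 41.0 and 1390 ± 68.3 (SD, n = 3 each), with a log2 change of 0.19 ± 0.052 (SE; 95% interval 0.08 to 0.30; limma adjusted p = 0.0152). The limma call ended without wild-type replicate 1 (log2 0.16, adjusted p = 0.0609), without the library labelled Txn1 KO replicate 3 (0.15, adjusted p = 0.0597) and without both (0.12, adjusted p = 0.128). Those are the libraries with liver transcripts. The wild-type one was the lowest of its group at 1177, and the other was the highest of its group at 1468. Whether liver transcripts had a part in this was not tested.

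Slc30a5 (ENSMUSG00000021629, chromosome 13, 100802648 to 100833427, minus strand) encodes ZnT5, also of the early secretory pathway. It was at 1980, 2085 and 1911 normalized counts in wild type, against 1890, 2073 and 2138 in the libraries labelled Txn1 KO, and the groups overlapped. The log2 change was 0.03 ± 0.051 (SE; limma adjusted p = 0.758), with an interval of 94.6% to 110.0% of wild type. Slc30a9 (ENSMUSG00000029221, chromosome 5, 67306955 to 67358443, plus strand) encodes ZnT9, a mitochondrial member of the family. It was at 1129, 1111 and 1080 normalized counts in wild type, against 991.1, 944.4 and 1055 in the libraries labelled Txn1 KO. The groups did not overlap, but the log2 change of -0.15 ± 0.055 (SE; 95% interval -0.27 to -0.04; limma adjusted p = 0.0601) missed the threshold. The same difference passed with edgeR on the recovered reads (log2 -0.16, adjusted p = 0.0473). It also passed in limma without the library labelled Txn1 KO replicate 3 (log2 -0.19, adjusted p = 0.0195). These were the only 2 of 17 alternatives in which Slc30a9 passed. It did not pass with DESeq2 on the recovered reads (adjusted p = 0.0955) or in limma without both liver-carrying libraries (adjusted p = 0.0603).

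**Figure D2:**
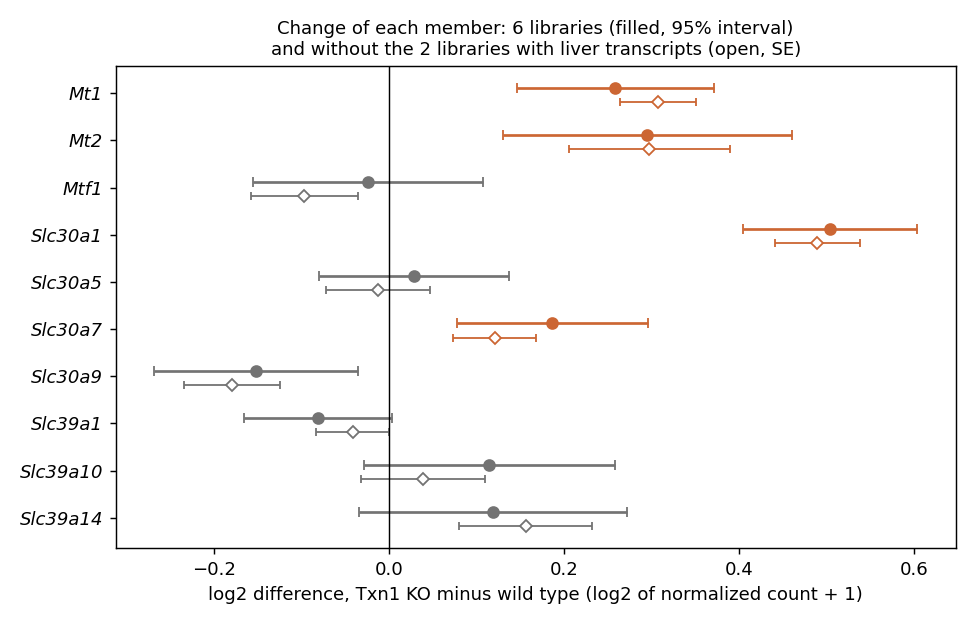
Log2 change of each of the 10 genes between the libraries labelled Txn1 KO and wild type, with 95% intervals from limma for all 6 libraries (filled circles) and SE bars for the fit without the 2 libraries with liver transcripts (open diamonds); orange marks genes that rose. Slc30a1 stands highest at 0.50, and the intervals of Mtf1, Slc30a5, Slc39a1, Slc39a10 and Slc39a14 include 0.

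None of the 3 ZIP genes among the 10 passed the test, and the groups overlapped in each. Slc39a1 (ENSMUSG00000052310, chromosome 3, 90248172 to 90253612, plus strand) encodes ZIP1, an importer of the plasma membrane. Its level was 4576, 4297 and 4542 normalized counts in wild type, against 4184, 4406 and 4094 in the libraries labelled Txn1 KO. The log2 change was -0.08 ± 0.040 (SE; limma adjusted p = 0.174), with an interval of 89.2% to 100.2% of wild type. Slc39a10 (ENSMUSG00000025986, chromosome 1, 46807544 to 46892852, minus strand) encodes ZIP10, a plasma membrane importer known for its part in B cell and macrophage survival. Its level was 712.2, 858.7 and 773.1 in wild type, against 862.5, 812.4 and 857.3 in the other group, with the lowest value in wild-type replicate 1. Slc39a10 differed by a log2 of 0.11 ± 0.068 (SE; limma adjusted p = 0.264), with an interval of 98.1% to 119.6% of wild type. Slc39a14 (ENSMUSG00000022094, chromosome 14, 70303469 to 70351425, minus strand) encodes ZIP14, which also carries iron and manganese and is known as a gene induced in inflammation. It was at 532.9, 466.3 and 477.9 in wild type, against 530.9, 521.5 and 549.1 in the libraries labelled Txn1 KO. Only wild-type replicate 1 reached into the range of the other group. For Slc39a14 the log2 change was 0.12 ± 0.072 (SE; limma adjusted p = 0.283), and the interval ran from 97.6% to 121% of wild type. The intervals of Slc39a10 and Slc39a14 thus reach changes about as large as that of Mt1, so these data do not show that the importers were unaltered. In the fit without the 2 libraries with liver transcripts, the log2 changes of Slc39a1, Slc39a10 and Slc39a14 were -0.04, 0.04 and 0.16. None of them passed in that fit (limma adjusted p = 0.567, 0.768 and 0.214).

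Compared per kilobase of exonic sequence (the union of exons in GENCODE M21), Mt1 was the most abundant of the 10 in both groups. In wild type it was at 2876 ± 274 normalized counts per kb (SD, n = 3), followed by Slc39a1 at 1892 ± 64.3, Mt2 at 677.7 ± 36.9 and Slc30a1 at 367.0 ± 21.1. Then came Slc30a5 at 273.1, Slc39a10 at 128.2, Slc30a7 at 109.8, Slc30a9 at 89.4, Mtf1 at 84.0 and Slc39a14 at 46.7. The wild-type ranges of neighbours in this order did not overlap. In the libraries labelled Txn1 KO, Mt1 was at 3432 ± 92.0, Slc39a1 at 1788 ± 68.0, Mt2 at 832.4 and Slc30a1 at 520.2 per kb, and Slc30a9 at 80.6 lay below Mtf1 at 82.7. Dividing by the longest coding transcript kept Mt1, Slc39a1 and Mt2 first in that order and put Slc30a5 above Slc30a1 and Mtf1 last. The importer ZIP1 and the metallothioneins thus made up the upper end of the scale by either length.

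**Figure D3:**
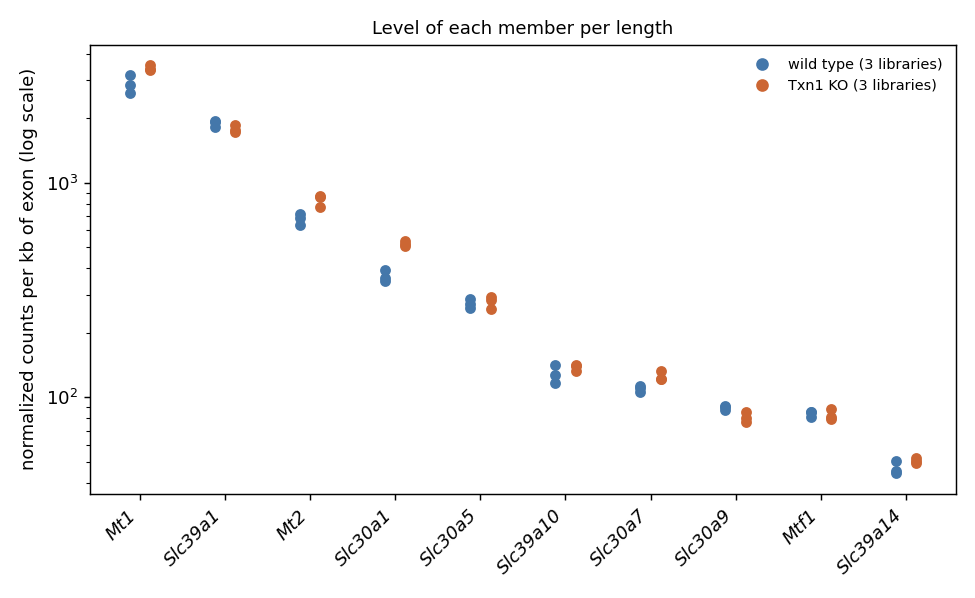
Levels of the 10 genes in normalized counts per kilobase of exonic sequence, on a log axis, with points for the 6 libraries coloured by group. Mt1 and Slc39a1 lie highest in all libraries and Slc39a14 lies lowest.

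Outside the 10 genes, Mt3 and Slc39a4 had larger log2 changes than any of the 10. All 3 listed metallothioneins rose, the third being Mt3 (Mt4 was not listed). Mt3, known for its expression in brain, was at 37.7, 41.2 and 38.6 normalized counts in wild type, against 85.8, 91.9 and 67.3 in the libraries labelled Txn1 KO. The groups did not overlap, and the means of this lowly expressed gene differed 2.09-fold (log2 1.03 ± 0.20, SE; limma adjusted p = 0.00116). Leaving out both liver-carrying libraries gave 1.14 (limma adjusted p = 0.00884). Of the SLC30 family 6 of 10 genes were listed, 2 of them higher and 0 lower, with a median log2 change of 0.10. Of the SLC39 family 13 of 14 were listed, 1 higher and 1 lower, with a median of -0.08. Among all genes 11.5% were higher and 9.97% lower.

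Slc39a4, which encodes ZIP4, the importer known from the gut, was the ZIP gene that rose. Its level was 283.3, 329.5 and 328.7 normalized counts in wild type, against 619.0, 529.1 and 691.7 in the libraries labelled Txn1 KO. The means were 313.8 ± 26.5 and 613.3 ± 81.5 (SD, n = 3 each), 1.95-fold apart (log2 0.96 ± 0.096, SE; limma adjusted p = 1.15e-06). Without the 2 libraries with liver transcripts the log2 change was 0.80 (limma adjusted p = 8.67e-04). Slc39a11, which encodes ZIP11, fell from 2159, 2062 and 2045 to 1956, 1828 and 1649 normalized counts (log2 -0.21 ± 0.055, SE; limma adjusted p = 0.0112). That call ended without the 2 libraries (log2 -0.12, limma adjusted p = 0.124). Among all 15 listed zinc genes outside the 10, including Tmem163 and Mcoln1, which also move zinc, 2 rose, 1 fell and 12 did not pass, or 20.0% called, against 21.5% of all genes.

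Among 5 genes reported as targets of MTF-1 outside the zinc families, 1 rose, 1 fell and 3 did not pass, where 21.5% of all genes were called. Gclc, which encodes the catalytic subunit of glutamate-cysteine ligase and is also a known NRF2 target, rose from 1547 ± 23.0 to 3535 ± 161 normalized counts (SD, n = 3 each; log2 1.19 ± 0.043, SE; limma adjusted p = 3.51e-12). Csrp1, which encodes a cysteine-rich LIM protein, fell from 3195 ± 33.5 to 2651 ± 149 (log2 -0.27 ± 0.044, SE; limma adjusted p = 2.14e-04). Selenoh, Ndrg1 and Pgf had log2 changes of -0.09, 0.11 and 0.41, with limma adjusted p values of 0.632, 0.0740 and 0.546.

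The genes whose levels over the 6 libraries were most like the mean log2 level of Mt1 and Mt2 were Taf4 and Ran (Pearson r of 0.994 each), Tmem205 (0.989), Gadd45b (0.987) and Mgat4b (0.985), among 10230 genes with a mean of at least 100. Taf4 encodes a subunit of the transcription factor TFIID and Ran the GTPase of nuclear transport. Over 6 libraries in 2 groups such values are common: 414 genes had an r above 0.9. Of the 5, Ran (log2 0.14) and Tmem205 (log2 0.25) passed the test between the groups, with limma adjusted p values of 0.00906 and 0.00257. These correlations share the same libraries and scaling and are given as a description.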

How the data were processed

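The authors' read counts were deposited after division by 1 size factor per library, a normalized signal, as the values show: at a tolerance of 0.01 reads, 100% of them are whole multiples of 1 read, which was worth 0.777 to 1.35. The deposited table also holds the authors' log2 fold changes and p-values. The tools STAR 2.5.2b, Trimmomatic 0.36, bcl2fastq 2.20 and DESeq2 and the build GRCm38 (mm10) are named per the submitters' processing notes. Which program counted reads, by which annotation and whether by strand, was not given in the sources used here. Control columns carry BMDM, a number and the unexplained word "Phi", which all columns share, so they were assigned to wild type, the only other group.

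The main test was limma 3.58.1 (R 4.3.3, trended prior) on log2(normalized count + 1), for 13977 genes whose mean reached 10. It was two-sided, with Benjamini-Hochberg adjustment. This procedure was run on simulated counts whose libraries differed only in depth, set group changes and random spread. Its error in these data was not measured by that run. For the 10 genes, counting error was 1.34% to 5.12% per gene and library, and 3 reads, the floor, were 2.33 to 4.04 normalized counts, for counting error only. Alternatives were other pseudocounts, filters and scalings, edgeR 4.0.16 and DESeq2 1.42.0 on recovered reads, the authors' statistics, a replicate block and leaving out libraries. The 10 genes and the other lists were chosen with earlier results of these data known. Named are all 10, Txn1, Lyz2, called members of the other lists (up to 4, or all of 5 or fewer) and the 5 genes most like Mt1 and Mt2; other genes are named beside counts or as markers.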

Additional observations from a re-analysis of the deposited data

How the results depend on the processing

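Without the 2 libraries with liver transcripts, 2 of the 10 genes passed in place of 4, both higher. In that fit Slc30a5 turned to -0.0121 and Txn1 to 0.0050 (log2). Leaving out each library in turn gave 2088 to 2820 genes called, against 3001 with all 6, and 3 to 4 of the 10 genes. Over these fits the log2 change ran from -0.0081 to 0.0811 for Slc30a5, from -0.0693 to 0.0086 for Mtf1, from -0.0507 to 0.0075 for Txn1 and from -0.0226 to 0.40 for Gm45774, so their signs turned; none of the 4 passed in any fit. The cause was not tested. Same-numbered libraries did not deviate together (r of -0.27, 0.14 and -0.33), so no pairing by number was visible. The highest r, 0.43, was between wild-type replicate 1 and the library labelled Txn1 KO replicate 3, which carry liver transcripts. From 3 libraries per group such values cannot exclude a pairing. A fit with the replicate block called 2675 genes and 4 of the 10. EdgeR called 2969 genes and 5 of the 10, adding Slc30a9, and DESeq2 called 2706 and 4. The scalings moved the median of all genes by under 0.01. The depth of each library limits changes of low genes such as Mt3, with 37 to 96 reads per library.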

Other observations

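Metallothioneins also bind copper, and 10 of 11 copper-handling genes were listed (Atp7b was not). Of these 1 rose, 1 fell and 8 did not pass the test, so 20.0% were called, close to the 21.5% of all genes. Slc31a2, which encodes the low-affinity copper transporter CTR2, rose from 2094 ± 95.1 to 2333 ± 122 normalized counts (SD, n = 3 each; log2 0.15 ± 0.048, SE; limma adjusted p = 0.0294). Commd1, whose product takes part in copper export, fell from 1114 ± 49.8 to 895.3 ± 80.0 (log2 -0.32 ± 0.065, SE; limma adjusted p = 0.00162). Neither passed once both liver-carrying libraries were left out (limma adjusted p = 0.245 and 0.0524). The importer gene Slc31a1 had 2339 ± 73.1 and 2257 ± 49.6 normalized counts and did not pass.

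Glucocorticoids induce Mt1 and Mt2 too, and 8 genes known to be induced by them were listed. Of these 4 rose, 0 fell and 4 did not pass the test, where 11.5% of all genes were called higher and 9.97% lower. Dusp1, a phosphatase that acts on MAP kinases, was at 956.8, 924.7 and 1049 normalized counts in wild type, against 1868, 1858 and 1869 in the libraries labelled Txn1 KO (log2 0.93 ± 0.053, SE; limma adjusted p = 8.10e-10). Klf9, a transcription factor, rose to 787.3 ± 15.2 normalized counts from 527.8 ± 46.8 in wild type (SD, n = 3 each; log2 0.58, limma adjusted p = 1.09e-05). Sgk1 and Tsc22d3 rose by 0.18 and 0.12 (log2; limma adjusted p = 0.00191 and 0.0405), and Tsc22d3 passed in 7 of 17 alternatives. Fkbp5 and Per1, also known targets, had log2 changes of -0.17 and -0.07 and did not pass (limma adjusted p = 0.297 and 0.477). Several of these genes are also known to respond to other signals.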
